A study of Mus musculus with 12 samples.

Results

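Polycomb genes were followed by RNA sequencing in 4T1 cells, a mouse mammary carcinoma line: the chromobox genes Cbx2, Cbx6, Cbx7 and Cbx8, the Polycomb group ring finger genes Bmi1 and Pcgf2, the ubiquitin ligase genes Ring1 and Rnf2, and the methyltransferase gene Ezh2. The 9 genes were taken by name from a table of 29937 genes. They were chosen by measured values, namely the levels of Cbx2, which lay above the controls in all 3 treatments. Differences of these genes from the controls are therefore given as descriptions, without a test. Tests are given for differences between treatments and for genes outside the 9. All 9 genes passed the filter on low values, which asked for 3 of 12 libraries at or above an FPKM of 1, the lowest with a count of 606 in 1 library.

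RNA was sequenced from 12 libraries of wild-type 4T1 cells, labelled as an adherent line, in 4 groups of 3 named PBS, APAP, Oxa and OAP2. The treatment label of the PBS libraries reads DMSO, and they served as controls. The other groups carry the name of their agent as treatment, and no further description of OAP2 is used here. The series design sets OAP2 against other drugs and speaks of a xenograft grown from cells, whereas the sample labels name the cell line alone, so growth in culture and in a host cannot be told apart from the labels. The sources used here give neither doses nor treatment times. They also do not say whether replicates were separate cultures, so a p-value reflects the spread among these libraries alone, which may be technical.

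Polycomb proteins keep developmental genes silent and act in a pair of large complexes. Polycomb repressive complex 2 (PRC2) methylates a lysine in the tail of histone H3 through the catalytic subunit EZH2. Canonical Polycomb repressive complex 1 (PRC1) binds that mark through a chromobox (CBX) subunit and attaches ubiquitin to histone H2A through RING1 or RNF2, each paired with a ring finger partner such as BMI1 or PCGF2. A canonical PRC1 holds a single CBX subunit at a time, so the CBX proteins compete for the same place.

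Total counts were between 64071751 and 71500487 per library. The markers of epithelial cells were abundant throughout, with a summed FPKM (fragments scaled to transcript length and library size) of 852.2 to 1293 over 6 genes, while the 4 endothelial and 5 T and B cell markers summed to at most 0.10 and 0.17. The control library PBS 2 stood apart: its 5 red blood cell markers summed to 230.3 FPKM and its 7 neutrophil markers to 64.77, against at most 0.37 and 0.54 in the other 11 libraries. The 7 macrophage markers summed to 46.12 in PBS 1 and to between 12.14 and 20.64 elsewhere. The 6 fibroblast markers summed to between 0.71 and 2.55, highest in PBS 2. Col1a1, Col1a2, Col3a1, Dcn and Lum were each highest in PBS 2, at 0.56, 0.46, 0.25, 0.16 and 0.51 FPKM. Pdgfra went the other way, at 0.61 FPKM in PBS 2 and up to 1.52 in Oxa 1. None of these marker genes was listed at 0 in all 12 libraries. In such bulk samples, fewer cells of a type and less RNA per cell cannot be told apart. The part of other cells in the results was not tested, and the differences of each of the 9 genes from PBS are given with and without PBS 2.

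Cbx2 encodes a CBX subunit of canonical PRC1, known for its role in silencing Hox genes and in sex determination. It lies on chromosome 11 (119022962 to 119031270, forward strand, GRCm38). Its level was 2.79, 1.86 and 2.25 FPKM in PBS 1 to 3, and 4.51, 4.12 and 4.20 FPKM in APAP 1 to 3. It was 6.83, 7.13 and 7.23 FPKM in Oxa 1 to 3, and 6.46, 6.74 and 5.41 FPKM in OAP2 1 to 3. Every treated library lay above every control library, and every Oxa and OAP2 library lay above every APAP library. The group means were 2.30 ± 0.467 FPKM in PBS, 4.28 ± 0.206 in APAP, 7.06 ± 0.208 in Oxa and 6.20 ± 0.701 in OAP2 (SD, n = 3). On the log2 scale of scaled counts, Cbx2 was higher than in PBS by 0.93 ± 0.15 (SE) in APAP, a fold of 1.91. It was higher by 1.62 ± 0.15 in Oxa, a fold of 3.08, and by 1.44 ± 0.15 in OAP2, a fold of 2.71. PBS 2 had the lowest control level, and without it the differences were 0.80, 1.49 and 1.31 for APAP, Oxa and OAP2. Within the 9 genes Cbx2 had the widest range, its highest library being 3.89 times its lowest, against 1.25 times for Bmi1, which had the narrowest.

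**Figure D1:**
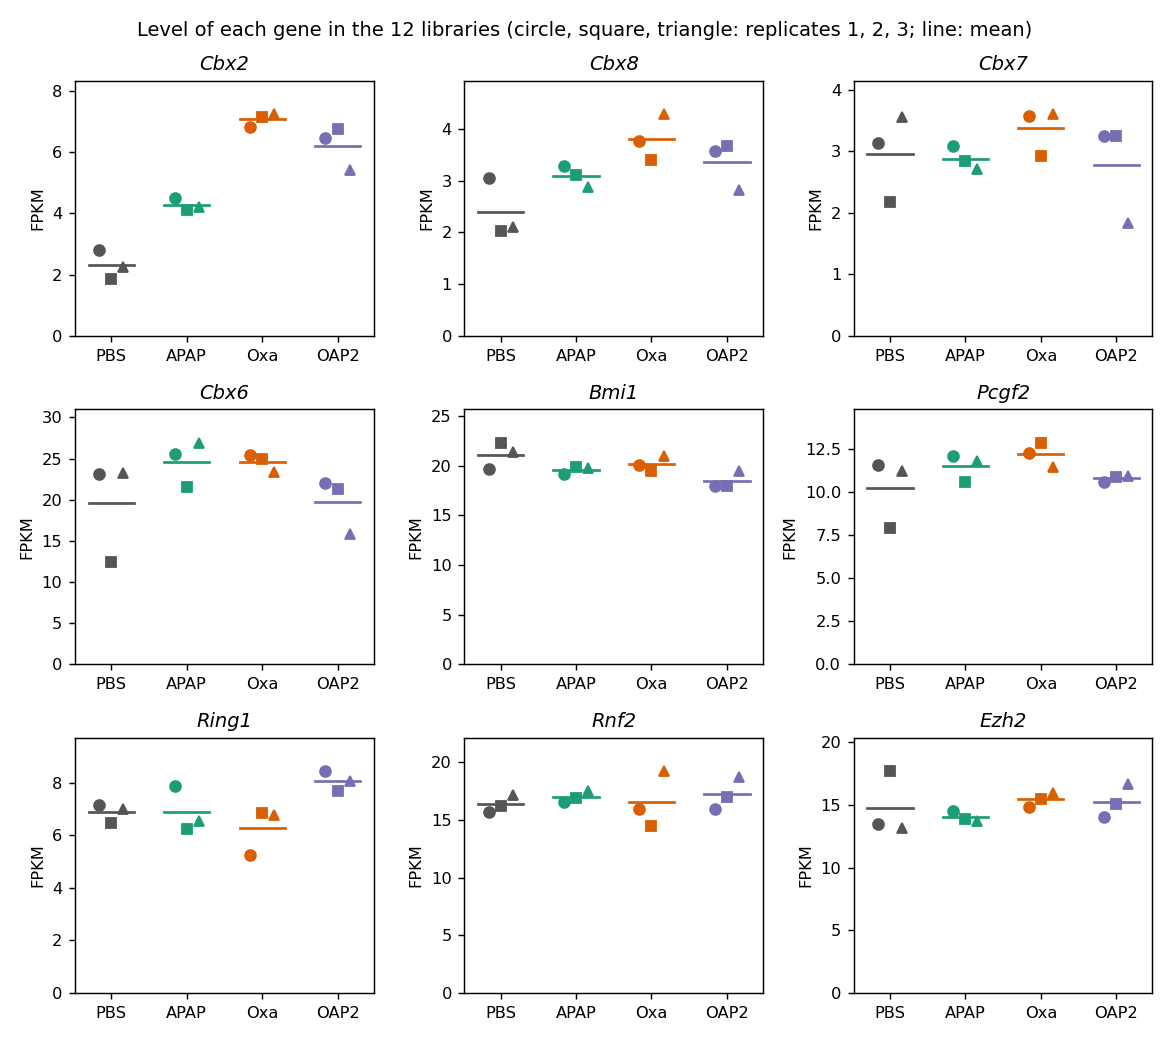
Level of each of the 9 genes in FPKM (vertical axes, each starting at 0) in PBS, APAP, Oxa and OAP2, with circle, square and triangle for replicates 1 to 3 and a line at the group mean. Cbx2 lay between 1.86 and 2.79 FPKM in PBS and between 4.12 and 7.23 FPKM in the treated libraries, and for none of the other 8 genes did every treated library lie above every control.

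Counts of the 9 genes against PBS are set beside the share of all 12036 genes that passed the filter. Groups did not overlap for 3 of 9 genes in OAP2 against PBS (18.7% of all genes), for 3 of 9 in Oxa against PBS (29.1%) and for 1 of 9 in APAP against PBS (15.9%). These 3 comparisons share the same controls and were those that chose Cbx2, so the counts describe the 9 genes only. The median log2 difference of the 9 genes from PBS was 0.09 in OAP2, 0.20 in Oxa and 0.10 in APAP, beside medians of -7e-04, -0.013 and -0.0041 over all genes.

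Cbx8, a CBX subunit that lies beside Cbx2 (chromosome 11, 119036305 to 119040969, reverse strand), was the member nearest to Cbx2 in its pattern. Its level was 3.05, 2.03 and 2.11 FPKM in PBS 1 to 3, and 3.29, 3.10 and 2.88 FPKM in APAP 1 to 3. It was 3.76, 3.39 and 4.28 FPKM in Oxa 1 to 3, and 3.58, 3.67 and 2.82 FPKM in OAP2 1 to 3. All 3 Oxa libraries lay above the controls, while APAP 3 and OAP2 3 fell below PBS 1. The log2 difference from PBS was 0.67 ± 0.18 in Oxa, 0.49 ± 0.18 in OAP2 and 0.40 ± 0.18 in APAP, and without PBS 2 it was 0.56, 0.39 and 0.30. Over the libraries left out in turn, the Oxa value lay between 0.56 and 0.89 and the OAP2 value between 0.39 and 0.74.

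Cbx7 and Cbx6 lie together on chromosome 15, with 81.1 kb between them. Cbx7 (79915807 to 79971119, reverse strand) encodes the CBX subunit that is prominent in embryonic stem cells. Its level was 3.14, 2.18 and 3.55 FPKM in PBS 1 to 3, 3.09, 2.84 and 2.71 in APAP 1 to 3, 3.58, 2.93 and 3.60 in Oxa 1 to 3, and 3.25, 3.25 and 1.84 in OAP2 1 to 3. The groups overlapped, and the log2 differences from PBS were 0.00 in APAP, 0.20 in Oxa and -0.08 in OAP2, each with an SE of 0.21. PBS 2 was the lowest control, and without it they were -0.17, 0.02 and -0.25. Cbx6 (79823896 to 79834688, reverse strand), a further CBX subunit, had the highest mean level of the 9 genes. It stood at 23.09, 12.39 and 23.22 FPKM in PBS 1 to 3, 25.51, 21.51 and 26.93 in APAP 1 to 3, 25.45, 24.94 and 23.35 in Oxa 1 to 3, and 22.09, 21.27 and 15.90 in OAP2 1 to 3. PBS 2 and OAP2 3 were low, and the Oxa libraries lay just above the highest control. The log2 difference of Cbx6 from PBS was 0.37 ± 0.20 in APAP, 0.34 ± 0.20 in Oxa and 0.03 ± 0.20 in OAP2. Without PBS 2 these values were 0.13, 0.10 and -0.22, so most of the APAP and Oxa differences and the sign of the OAP2 difference rested on that library. Cbx7 shares bases with Apobec3 on the opposite strand (mean 1.49 FPKM), and the strand setting of the counting is not given.

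Bmi1 and Pcgf2, alternative ring finger partners of RING1 and RNF2 in canonical PRC1, differed little between groups. Bmi1 (chromosome 2, 18677018 to 18686629, forward strand) is best known for repressing the cell cycle inhibitor locus Cdkn2a and for self-renewal of stem cells. Its level was 19.68, 22.32 and 21.38 FPKM in PBS 1 to 3, 19.17, 19.91 and 19.78 in APAP 1 to 3, 20.05, 19.49 and 20.98 in Oxa 1 to 3, and 17.92, 17.99 and 19.50 in OAP2 1 to 3. The OAP2 libraries lay just below the lowest control, and the log2 difference was -0.18 ± 0.08 in OAP2, -0.06 ± 0.08 in Oxa and -0.07 ± 0.08 in APAP, or -0.14, -0.01 and -0.02 without PBS 2. Pcgf2 (chromosome 11, 97688823 to 97700497, reverse strand) stood at 11.60, 7.91 and 11.27 FPKM in PBS 1 to 3, 12.14, 10.62 and 11.85 in APAP 1 to 3, 12.29, 12.89 and 11.48 in Oxa 1 to 3, and 10.61, 10.88 and 10.97 in OAP2 1 to 3. PBS 2 was the lowest of the 12, and the log2 differences from PBS of 0.21 in APAP, 0.26 in Oxa and 0.09 in OAP2 (each with SE 0.13) became 0.05, 0.11 and -0.07 without it. Bmi1 made up 67.4% ± 5.71 of the summed FPKM of the pair in PBS, 63.0% ± 2.03 in APAP, 62.3% ± 2.23 in Oxa and 63.0% ± 0.865 in OAP2 (SD, n = 3). The highest control share, 73.8%, was that of PBS 2, and the lowest was 62.9%.

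Ring1 and Rnf2 encode the alternative ubiquitin ligases of PRC1. Ring1 (chromosome 17, 34020792 to 34024680, reverse strand) stood at 7.17, 6.49 and 7.00 FPKM in PBS 1 to 3, 7.90, 6.24 and 6.54 in APAP 1 to 3, 5.24, 6.87 and 6.77 in Oxa 1 to 3, and 8.45, 7.68 and 8.09 in OAP2 1 to 3. The OAP2 libraries lay above all PBS and Oxa libraries, and the log2 difference from PBS was 0.24 ± 0.13 in OAP2, -0.12 ± 0.13 in Oxa and 0.04 ± 0.13 in APAP, or 0.20, -0.16 and 0.00 without PBS 2. Rnf2 (chromosome 1, 151458004 to 151500833, reverse strand) was the more abundant of the pair, at 15.68, 16.21 and 17.12 FPKM in PBS 1 to 3, 16.58, 16.88 and 17.51 in APAP 1 to 3, 15.90, 14.43 and 19.21 in Oxa 1 to 3, and 15.90, 16.99 and 18.72 in OAP2 1 to 3. All 4 groups overlapped, with log2 differences from PBS of 0.10, 0.02 and 0.09 in APAP, Oxa and OAP2, each with SE 0.10, and 0.09, 0.02 and 0.09 without PBS 2. Rnf2 made up between 65.3% and 75.2% of the summed FPKM of the pair in every library. Its last bases overlap Trmt1l on the opposite strand (mean 5.54 FPKM).

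Ezh2 (chromosome 6, 47530139 to 47595341, reverse strand) stood at 13.46, 17.69 and 13.18 FPKM in PBS 1 to 3, 14.52, 13.90 and 13.73 in APAP 1 to 3, 14.84, 15.50 and 15.98 in Oxa 1 to 3, and 14.02, 15.09 and 16.68 in OAP2 1 to 3. PBS 2 was the highest of the 12 libraries, opposite to its place in Cbx2, Cbx6, Cbx7, Cbx8, Pcgf2 and Ring1, for which it was the lowest control. The log2 difference of Ezh2 from PBS was -0.03 ± 0.12 in APAP, 0.07 ± 0.12 in Oxa and 0.06 ± 0.12 in OAP2, and without PBS 2 it was 0.12, 0.22 and 0.21, so the APAP value changed sign. Both PBS 2 and OAP2 3 were the lowest of their group for the 4 CBX genes and the highest for Bmi1 and Ezh2. Pcgf2 was lowest in PBS 2 and highest in OAP2 3 within these groups.

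Over the 12 libraries the mean levels per transcript length ran from Cbx6 (22.1 FPKM) through Bmi1 (19.9), Rnf2 (16.8), Ezh2 (14.9), Pcgf2 (11.2), Ring1 (7.04), Cbx2 (4.96) and Cbx8 (3.16) to Cbx7 (3.00). Bmi1 lay above Rnf2, Ezh2 above Pcgf2, and Pcgf2 above Ring1 in 12 of 12 libraries. The order of neighbours was less firm elsewhere: Cbx6 lay above Bmi1 in 10 of 12, Rnf2 above Ezh2 in 10, Ring1 above Cbx2 in 9, Cbx2 above Cbx8 in 10 and Cbx8 above Cbx7 in 9. The 3 libraries in which Cbx2 lay above Ring1 were all Oxa libraries.

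Shares were taken of the summed FPKM of the 4 CBX members. The sum of Cbx2, Cbx6, Cbx7 and Cbx8 was 27.2 ± 7.60 in PBS, 34.9 ± 2.89 in APAP, 38.8 ± 0.691 in Oxa and 32.1 ± 5.31 in OAP2 (SD, n = 3). The lowest control sum, 18.46, was that of PBS 2, and the highest was 32.07. That highest control lay within the range of APAP (31.57 to 36.72) and of OAP2 (25.97 to 35.38), and below the lowest Oxa sum (38.39). Cbx2 made up 8.67% ± 1.42 of that sum in PBS, 12.3% ± 0.811 in APAP, 18.2% ± 0.843 in Oxa and 19.5% ± 1.29 in OAP2. The share of Cbx6 was 71.2% ± 3.79 in PBS, 70.5% ± 2.63 in APAP, 63.3% ± 2.27 in Oxa and 61.5% ± 0.812 in OAP2. PBS 2 had the lowest Cbx6 share of the controls, at 67.1%. Cbx7 and Cbx8 each stayed between 6.78% and 11.8% of the sum in every library. These are shares of messenger RNA levels, and protein was not measured.

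**Figure D2:**
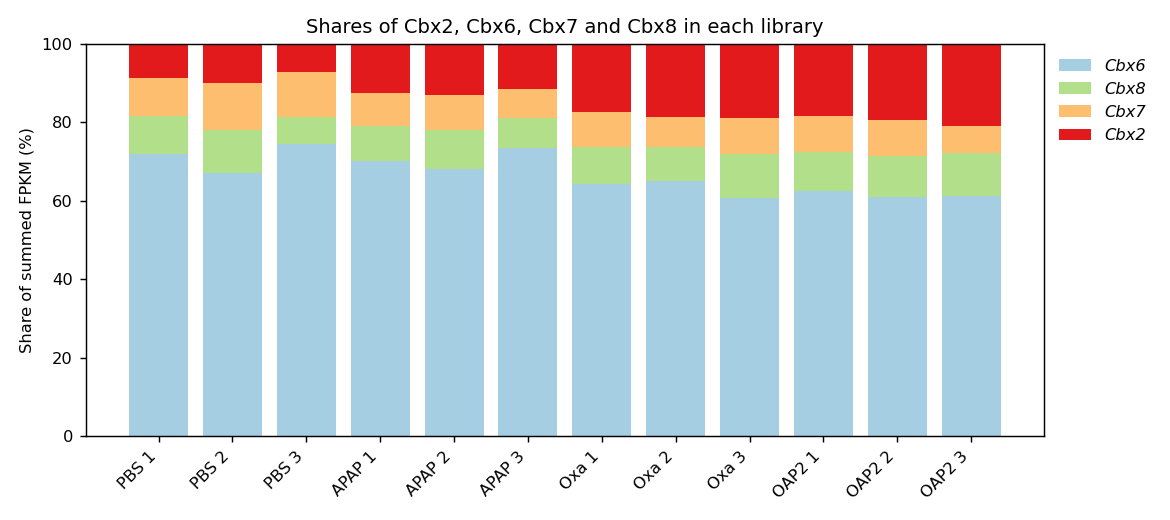
Share of each of 4 CBX genes (colours) in the summed FPKM of Cbx2, Cbx6, Cbx7 and Cbx8, in percent (vertical axis), with 1 bar per library. Cbx2 lay between 7.23% and 10.1% in PBS and between 17.2% and 18.8% in Oxa.

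Differences between treatments were not used to choose the genes and were tested over all 12036 genes with edgeR's quasi-likelihood test and Benjamini-Hochberg adjustment. Cbx2 was higher in Oxa than in APAP by 0.69 ± 0.15 on the log2 scale, a fold of 1.61 (95% interval of the log2 difference 0.37 to 1.01, adjusted p = 0.00887, edgeR), with 3 of 3 Oxa libraries above all APAP libraries. Its log2 value stayed between 0.61 and 0.74 under every alternative tried, with adjusted p-values up to 0.0419. For Oxa against APAP, 1 of the 9 genes was past the threshold (an adjusted p below 0.05), where 15.4% of all genes were, and 3 of 9 (Cbx2, Cbx8 and Ezh2) did not overlap, where 47.8% of all genes did not. Cbx8 differed by 0.27 ± 0.18 (adjusted p = 0.345, edgeR) and Ezh2 by 0.10 ± 0.12 (adjusted p = 0.585, edgeR).

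Cbx2 was at a higher level in each OAP2 library than in any APAP library. The log2 difference of 0.51 ± 0.15, a fold of 1.42 (95% interval 0.19 to 0.82), did not pass over all genes (adjusted p = 0.132, edgeR), and it passed with DESeq2 (adjusted p = 0.0266). Over the alternatives the adjusted p lay between 0.0266 and 0.389. No member was past the threshold in OAP2 against APAP with edgeR (0 of 9, where 0.474% of all genes were). An unadjusted edgeR p below 0.05 was found for 1 of 9, beside 1835 of all 12036 genes. DESeq2 called 1 (Cbx2), beside 506 of all genes, and limma 0. Groups did not overlap for 1 of 9 (Cbx2), where 25.7% of all genes did not.

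Between OAP2 and Oxa the interval of the Cbx2 difference held 0. The log2 difference was -0.18 ± 0.15 for OAP2 against Oxa (95% interval -0.50 to 0.13, adjusted p = 0.451, edgeR), although the 3 OAP2 libraries lay below the 3 Oxa libraries. Ring1 was 0.36 ± 0.13 higher in OAP2 (95% interval 0.08 to 0.65, adjusted p = 0.0913, edgeR), with no overlap, and DESeq2 gave it an adjusted p of 0.045. Over the alternatives that adjusted p lay between 0.045 and 0.267. Cbx6 (-0.31 ± 0.20, adjusted p = 0.337, edgeR) and Pcgf2 (-0.17 ± 0.13, adjusted p = 0.425, edgeR) lay lower in all 3 OAP2 libraries than in any Oxa library. In this comparison edgeR called 0 of the 9 genes, where 12.9% of all genes were called. An unadjusted edgeR p below 0.05 was found for 1 of 9, beside 3346 of all 12036 genes. DESeq2 called 1 (Ring1), beside 2161 of all genes, and limma 0. Groups did not overlap for 4 of 9, where 36.1% of all genes did not.

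**Figure D3:**
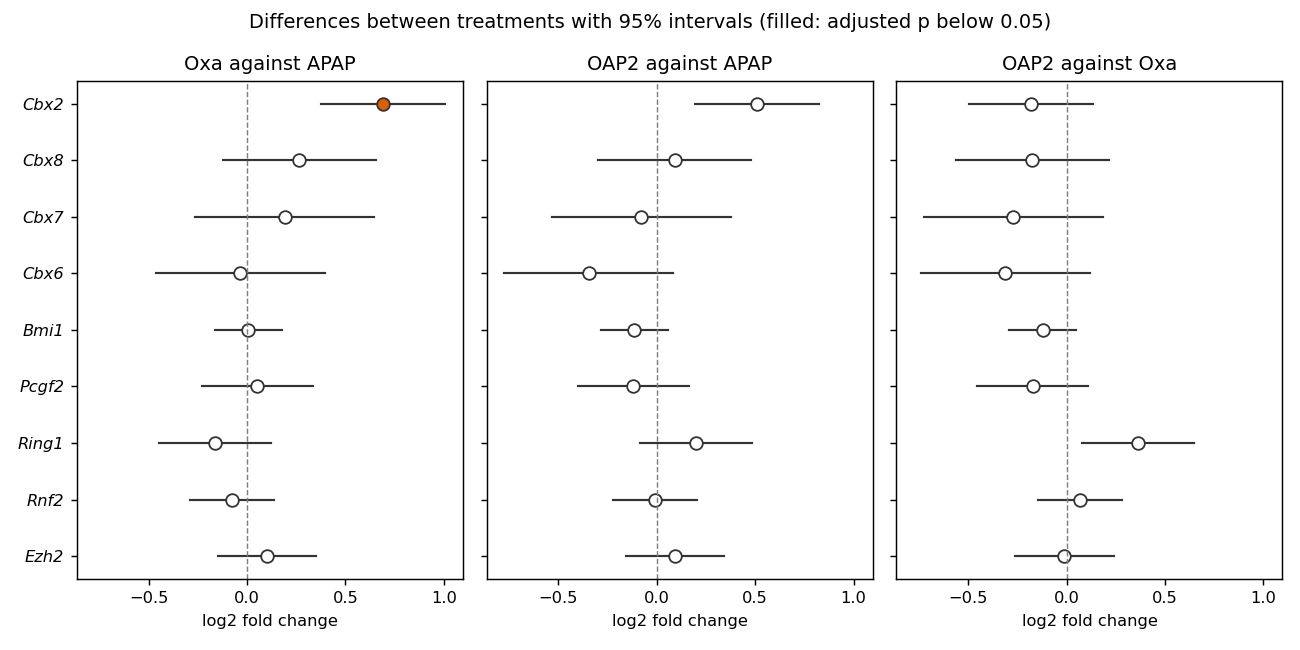
Log2 fold change (horizontal axis) of each of the 9 genes between treatments, as points with 95% intervals, filled where the adjusted p was below 0.05. Only Cbx2 in Oxa against APAP (0.69) is filled. Its interval in OAP2 against Oxa reaches from -0.50 to 0.13.

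Cbx2 and Cbx8 point towards each other on chromosome 11, with 5.04 kb between them. Of 15 further genes analysed here that start within 500 kb of the start of Cbx2, all at higher coordinates, 8 passed the filter on low values. Besides Cbx8 these were Tbc1d16, Gaa, Eif4a3, Sgsh, Slc26a11, Rnf213 and Endov. With edgeR, 0 of these 7 passed the threshold against PBS in any treatment. Of all genes, 5.25% passed it in OAP2, 10.1% in Oxa and 0.0166% in APAP. Tbc1d16, the nearest of the 7, is the gene of a GTPase-activating protein. It differed from PBS by 0.48 ± 0.19 in APAP (adjusted p = 0.48, edgeR) and by -0.37 ± 0.19 in Oxa (adjusted p = 0.228, edgeR). Of the 7 it had the only unadjusted edgeR p below 0.05 against PBS, in APAP. It was lower in Oxa than in APAP by 0.85 on the log2 scale (-0.85 ± 0.19, adjusted p = 0.011, edgeR). Eif4a3, of a helicase in the exon junction complex, differed from PBS by -0.08 in APAP, -0.09 in Oxa and -0.10 in OAP2, each with SE 0.09.

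**Figure D4:**
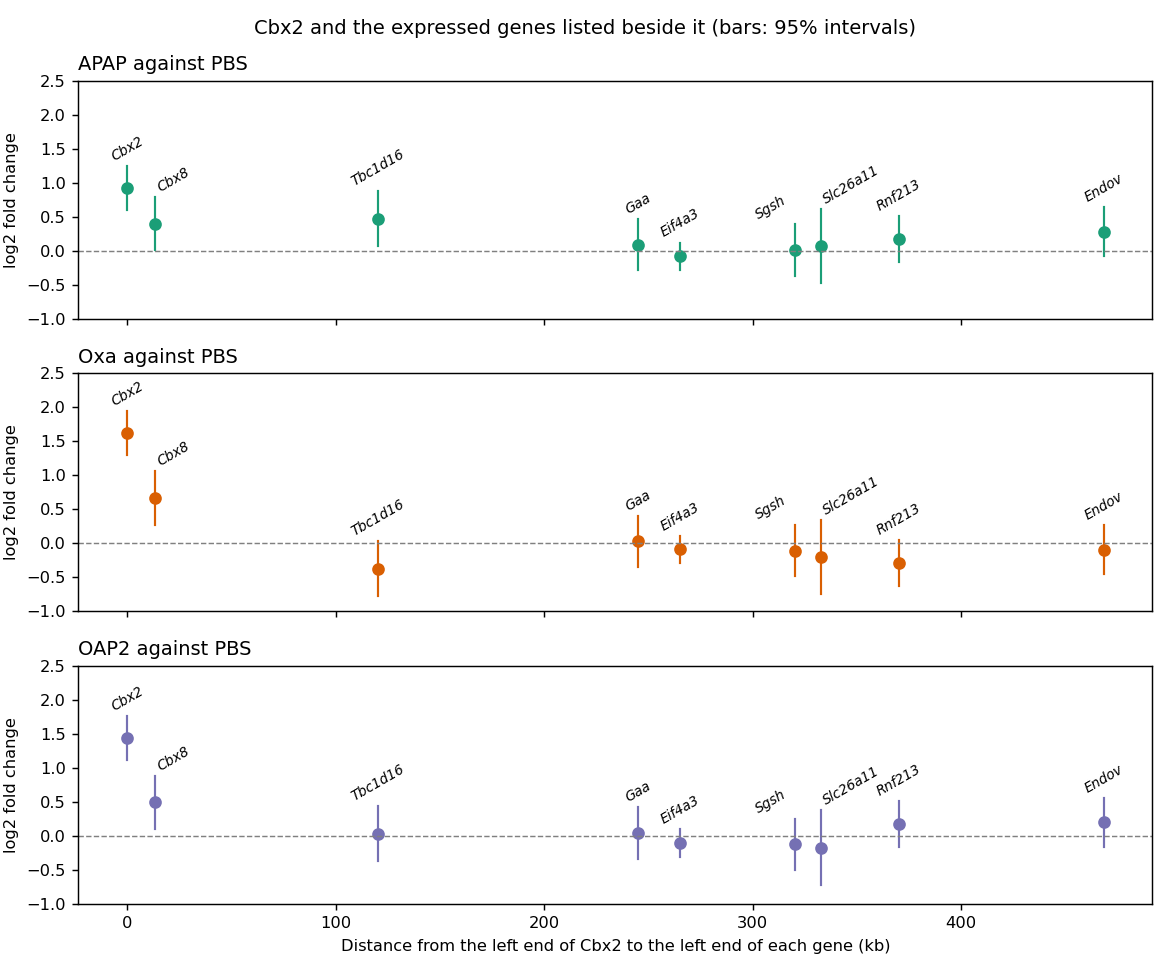
Log2 fold change against PBS (vertical axes, with 95% intervals) of Cbx2 and 8 genes near it that passed the filter, by distance in kb from the left end of Cbx2 to the left end of each gene (horizontal axis), for APAP, Oxa and OAP2. Cbx2 (0.93, 1.62 and 1.44) and Cbx8 stand above 0 in all 3 panels. The genes from Gaa onward lie between -0.29 (Rnf213 in Oxa) and 0.28 (Endov in APAP), with intervals that hold 0. Cbx2 was chosen by these differences, so the intervals of Cbx2 and Cbx8 are drawn as descriptions and are not a test.

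Promoter windows (250 bases before to 50 after the start site, RefSeq, GRCm38.p6) were matched for 8 of the 9 genes. No window was matched for Cbx2, so its promoter was not searched. The windows of Cbx8, Bmi1 and Ezh2 are shown. They set a member whose libraries varied with those of Cbx2 beside the member with the narrowest range and the methyltransferase gene. Capitals mark matches on either strand to CACGTG (E-box), TGACGTCA (cyclic AMP response element), GGGCGG (GC box), TTTGGCGC or TTTCCCGC (E2F) and the letters CCAAT. Positions count from the start site to the first base of a match. A match is a description of letters and not a binding site.
Cbx8, chr11:119040864-119041163, reverse strand: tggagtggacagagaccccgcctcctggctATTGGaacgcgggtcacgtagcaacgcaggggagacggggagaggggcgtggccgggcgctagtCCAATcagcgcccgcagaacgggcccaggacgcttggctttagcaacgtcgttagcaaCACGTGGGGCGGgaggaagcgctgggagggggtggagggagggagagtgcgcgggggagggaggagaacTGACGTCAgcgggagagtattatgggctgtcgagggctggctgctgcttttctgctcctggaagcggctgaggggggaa
Bmi1, chr2:18676768-18677067, forward strand: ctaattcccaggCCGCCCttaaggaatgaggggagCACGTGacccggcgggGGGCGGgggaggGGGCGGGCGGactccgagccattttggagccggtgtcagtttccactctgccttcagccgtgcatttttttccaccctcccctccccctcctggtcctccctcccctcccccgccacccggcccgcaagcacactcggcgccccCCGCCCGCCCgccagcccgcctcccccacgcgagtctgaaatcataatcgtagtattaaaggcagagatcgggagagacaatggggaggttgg
Ezh2, chr6:47594981-47595280, reverse strand: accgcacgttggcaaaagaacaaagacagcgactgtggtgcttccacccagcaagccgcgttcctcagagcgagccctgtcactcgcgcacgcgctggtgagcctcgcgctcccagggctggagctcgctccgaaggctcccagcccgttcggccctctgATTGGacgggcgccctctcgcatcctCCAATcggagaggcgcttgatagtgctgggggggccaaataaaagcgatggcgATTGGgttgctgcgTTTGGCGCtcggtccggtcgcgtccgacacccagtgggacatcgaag

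The Cbx8 window holds an E-box at -98 directly before a GC box at -92, a cyclic AMP response element at -29 and CCAAT letters at -220 and -156. The Bmi1 window holds an E-box at -215 and 6 GC boxes, of which those at -187 and -183 and those at -43 and -39 share letters. The Ezh2 window holds E2F letters at position 4 after the start and CCAAT letters at -90, -64 and -11. Among 32851 windows of the same length, 7.15% held the E-box, 1.79% the cyclic AMP response element, 1.56% the E2F letters, 37.4% CCAAT and 35.7% the GC box. The E-box occurred in 4 of the 8 windows (Bmi1, Cbx6, Cbx8 and Pcgf2), the cyclic AMP response element only in that of Cbx8 and the E2F letters only in that of Ezh2. All 8 windows were rich in GC, at 61.7% to 74.0% with 10 to 37 CpG, beside medians of 52.7% and 7 over all windows.

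Likeness to Cbx2 was ranked over 8760 genes with a mean FPKM of at least 2 by Pearson's r of log2 CPM (counts scaled to library size) across the 12 libraries, as a description. The libraries share their group, so r was also taken within groups. The 5 highest were Rbm45, a gene of an RNA-binding protein (r = 0.965, Spearman's rho = 0.909), Ift46, of intraflagellar transport (0.954 and 0.965), Hinfp, of a histone gene activator (0.947 and 0.916), Mnt, of a MAX-binding repressor (0.945 and 0.951), and Fam199x (0.938 and 0.853). Without PBS 2 and PBS 3, the libraries farthest from the median of Cbx2, r was 0.943, 0.976, 0.922, 0.884 and 0.828 in the same order. Within groups it was 0.691, 0.697, 0.342, 0.706 and 0.508, so part of the likeness lay between the groups. Mnt stood at a mean of 8.80 FPKM in PBS, 13.8 in APAP, 22.8 in Oxa and 16.5 in OAP2. The 3 lowest were Serpinb2, of an inhibitor of plasminogen activators (r = -0.961), Mpzl3 (-0.961) and Mmd (-0.955), and Serpinb2 had means of 15.0, 7.45, 3.31 and 3.89 FPKM in the same order of groups.

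Among the members Cbx8 ranked 22 (r = 0.895, within groups 0.869), and it thus varied with Cbx2 also among the libraries of a group. Bmi1 ran opposite to Cbx2, at -0.644 over the 12 libraries and -0.833 within groups. Cbx6 was at 0.456 and 0.802, Pcgf2 at 0.583 and 0.723, Cbx7 at 0.274 and 0.691, and Ezh2 at 0.140 and -0.542. Without PBS 2 and PBS 3, r was 0.667 for Cbx8, -0.309 for Bmi1, -0.0926 for Cbx6, -0.0076 for Pcgf2, 0.179 for Cbx7 and 0.576 for Ezh2, so the values of Bmi1, Cbx6, Pcgf2 and Ezh2 over the 12 libraries depended on those controls. The libraries PBS 2 and OAP2 3, which were low for the CBX genes, enter the values within groups.

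Other Polycomb genes were taken from a list of 38, of which 36 matched the table and 33 passed the filter. Auts2 was listed at 0 in all libraries, and Jarid2 and Mbd5 were below the filter. In OAP2 against PBS, 1 rose and 3 fell, and in Oxa against PBS 2 rose and 0 fell, at an adjusted p below 0.05 with edgeR. These are 12.1% and 6.06% of the 33, beside 5.25% of all genes in OAP2 and 10.1% in Oxa. Their median log2 difference was -0.02 in OAP2 and -0.04 in Oxa. In APAP against PBS 0 of 33 were called with edgeR, DESeq2 or limma, where edgeR called 0.0166% of all genes. An unadjusted edgeR p below 0.05 was found for 2 of 33, beside 1103 of all 12036 genes. The 2 were Mga (0.26 ± 0.09) and Rbbp7 (-0.37 ± 0.13), both at an adjusted p of 0.43 (edgeR). Without PBS 2 the count was 7 in OAP2 and 7 in Oxa against PBS, where edgeR then called 1976 and 3066 of all 12036 genes. The OAP2 count of 4 was 2 without PBS 1 or PBS 3 and 1 without OAP2 1 or OAP2 2. The Oxa count of 2 was 1 without any of PBS 1, PBS 3 and the 3 Oxa libraries.

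Phc1, a polyhomeotic subunit of canonical PRC1 that lets complexes join into larger assemblies, was high in Oxa alone among the 4 groups. It stood at 3.18, 3.06 and 2.83 FPKM in PBS 1 to 3, 3.18, 2.85 and 2.92 in APAP 1 to 3, 4.66, 5.36 and 4.87 in Oxa 1 to 3, and 2.77, 3.57 and 2.78 in OAP2 1 to 3. It rose by 0.72 ± 0.14 in Oxa against PBS (fold 1.65, adjusted p = 0.00691, edgeR) and by 0.70 ± 0.14 against APAP (adjusted p = 0.00531, edgeR). It was lower in OAP2 than in Oxa (-0.70 ± 0.13, adjusted p = 0.00523, edgeR). All 3 calls held under every alternative tried, with adjusted p-values up to 0.0365, 0.03 and 0.0345. In OAP2 against Oxa, Cbx2 did not pass the threshold, at -0.18.

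Phf19, an accessory PRC2 subunit that helps the complex to reach its target genes, was low in OAP2. It stood at 8.34, 6.59 and 7.85 FPKM in PBS 1 to 3, 6.80, 6.56 and 6.71 in APAP 1 to 3, 7.28, 9.24 and 7.73 in Oxa 1 to 3, and 4.46, 4.96 and 4.42 in OAP2 1 to 3. All OAP2 libraries lay below the other 9. Phf19 fell in OAP2 against PBS (-0.71 ± 0.12, adjusted p = 0.00629, edgeR) and against Oxa (-0.81 ± 0.12, adjusted p = 0.00146, edgeR), and against APAP it differed by -0.56 ± 0.12 (adjusted p = 0.0679, edgeR; 0.0035, DESeq2). The call against PBS was lost only in the fit of 6 libraries, at 0.0959. Of the 5 core PRC2 subunits on this list, edgeR called 2 lower in OAP2 than in PBS, where 5.25% of all genes were called in either direction. They were Eed, the reader of the methyl mark (-0.39 ± 0.10, adjusted p = 0.0431, edgeR), and the histone chaperone Rbbp7 (-0.51 ± 0.13, adjusted p = 0.0434, edgeR). Suz12 (-0.03 ± 0.08), Ezh1 (0.13 ± 0.21) and Rbbp4 (-0.29 ± 0.10) were not called (adjusted p = 0.883, 0.799 and 0.123, edgeR). Rbbp7 was highest in PBS 2, at 62.76 FPKM against 40.59 and 44.58 in PBS 1 and PBS 3, and its value without that library was -0.30. Eed lost its call under 8 of 13 alternatives: on leaving out any of PBS 1, PBS 3 and the 3 OAP2 libraries, with no filter, in the 6 libraries compared and with the replicate block. Rbbp7 lost it under 6 of 13: without OAP2 1 or OAP2 2, with limma at either pseudocount, with no filter and in the 6 libraries. The adjusted p reached 0.298 for Eed and 0.273 for Rbbp7. The paralogous subunit Rbbp4 was lower in OAP2 than in Oxa (-0.37 ± 0.10, adjusted p = 0.0345, edgeR).

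Variant PRC1 lacks the CBX subunits of canonical PRC1. Of its genes, L3mbtl2 rose against PBS in OAP2 (0.48 ± 0.12, adjusted p = 0.0305, edgeR) and in Oxa (0.41 ± 0.12, adjusted p = 0.0402, edgeR). Its partner Mga, a MAX-associated scaffold, was lower in Oxa than in APAP (-0.42 ± 0.09, adjusted p = 0.00974, edgeR) and higher in OAP2 than in Oxa (0.32 ± 0.09, adjusted p = 0.0364, edgeR). E2f6, a repressor of the same complex, was lower in Oxa than in APAP (-0.37 ± 0.11, adjusted p = 0.0368, edgeR). The Mga call against APAP held under every alternative, whereas those of L3mbtl2, E2f6 and Rbbp4 and that of Mga for OAP2 against Oxa were lost under 7 to 10 of them, the removal of single libraries included. Between treatments 1 of 33 rose and 3 fell in OAP2 against Oxa, and 1 rose and 2 fell in Oxa against APAP. These are 12.1% and 9.09% of the list, beside 12.9% and 15.4% of all genes. The count of 4 in OAP2 against Oxa was 2 without Oxa 1, Oxa 2, Oxa 3 or OAP2 2. In OAP2 against APAP edgeR called 0 of 33, where it called 0.474% of all genes. An unadjusted edgeR p below 0.05 was found for 5 of 33, beside 1835 of all 12036 genes. DESeq2 called 2 (Phf19 and Eed), beside 506 of all genes, and limma 0.

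**Figure D5:**
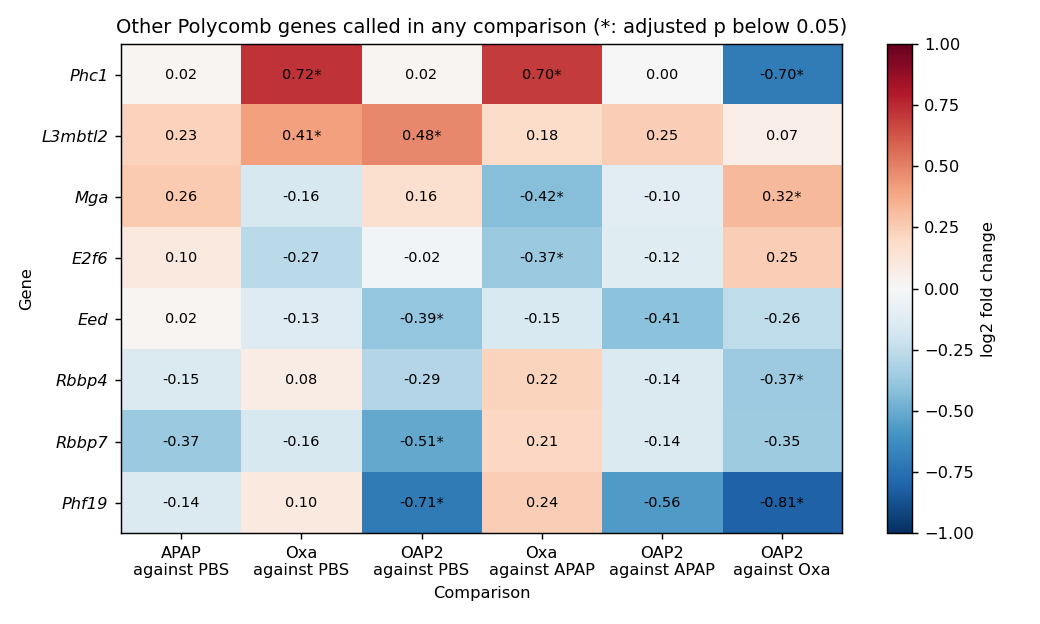
Log2 fold changes (colour scale and numbers) of 8 further Polycomb genes (rows) called in at least 1 of the 6 comparisons (columns), with an asterisk at an adjusted p below 0.05. Phc1 is red in Oxa against PBS (0.72) and against APAP (0.70), and Phf19 is blue in OAP2 against PBS (-0.71), APAP (-0.56) and Oxa (-0.81).

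The HP1 genes Cbx1, Cbx3 and Cbx5 share the chromobox name but read the methyl mark of constitutive heterochromatin rather than that of Polycomb. Cbx5 was lower in Oxa than in PBS (-0.46 ± 0.14, adjusted p = 0.0486, edgeR) and than in APAP (-0.51 ± 0.14, adjusted p = 0.0241, edgeR). Its level in OAP2 was alike, at 13.31 FPKM beside 13.3 in Oxa and 18.37 in PBS, and the difference of OAP2 from PBS was -0.45 ± 0.14 (adjusted p = 0.0731, edgeR; 0.025, DESeq2) and from APAP -0.50 ± 0.14 (adjusted p = 0.116, edgeR; 0.0215, DESeq2). Cbx3 was lower in OAP2 than in Oxa (-0.39 ± 0.10, adjusted p = 0.023, edgeR) and higher in Oxa than in APAP (0.37 ± 0.10, adjusted p = 0.0275, edgeR). Cbx1 was not called in any of the 6 comparisons of all libraries. Each of the 4 edgeR calls of Cbx5 and Cbx3 was lost with no filter and when single libraries were left out, with adjusted p-values up to 0.174. The Cbx5 call in Oxa against PBS was lost under 10 of 13 alternatives, with limma, the 6 libraries compared and the replicate block among them. The other 3 calls were each lost under 6 or 7 of 13. Without PBS 2, Cbx3 was called higher in Oxa than in PBS (0.34, adjusted p = 0.0149, edgeR), Cbx1 was called lower in Oxa (adjusted p = 0.0143) and in OAP2 (adjusted p = 0.0116), and Cbx5 was called lower in OAP2 (-0.57, adjusted p = 0.00668).

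Known targets of Polycomb silencing were counted over 25 Hox genes and the cell cycle inhibitor genes Cdkn2b and Cdkn1c. Only 7 of the 27 passed the filter, all in the HoxA cluster, where the highest library value was 15.61 FPKM over 11 genes. The 6 HoxB, 3 HoxC and 5 HoxD genes reached at most 0.11, 0.13 and 0.82 FPKM. Hoxa2, of hindbrain and neural crest patterning, stood at 4.15, 3.48 and 4.12 FPKM in PBS 1 to 3, 3.59, 3.55 and 4.70 in APAP 1 to 3, 6.90, 7.33 and 7.08 in Oxa 1 to 3, and 3.98, 4.50 and 4.69 in OAP2 1 to 3. The Oxa libraries lay apart from the other 9. Hoxa2 rose in Oxa against PBS by 0.87 ± 0.16 (fold 1.82, adjusted p = 0.00614, edgeR) and against APAP by 0.82 ± 0.16 (adjusted p = 0.00519, edgeR), and it was lower in OAP2 than in Oxa (-0.69 ± 0.16, adjusted p = 0.0124, edgeR). The last call was lost without Oxa 2 (0.0664) or OAP2 1 (0.0548). Of the 7 tested genes, Hoxa2 was the only one called in Oxa against PBS with all 12 libraries, beside 10.1% of all genes. In OAP2 and in APAP against PBS edgeR called 0 of 7, beside 5.25% and 0.0166% of all genes, and DESeq2 and limma called 0. An unadjusted edgeR p below 0.05 was found for 1 and 0 of 7, beside 2499 and 1103 of all 12036 genes. Without PBS 2, edgeR also called Hoxa7 lower in Oxa (-0.58 ± 0.16, adjusted p = 0.0208), and it called Hoxa3 (-0.53 ± 0.15, adjusted p = 0.0328) and Hoxa5 (-0.67 ± 0.16, adjusted p = 0.0111) lower in OAP2. These 3 genes were named after their values were seen. Without PBS 2 each comparison thus had 2 of 7 called, beside 3066 of all 12036 genes in Oxa and 1976 in OAP2.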

How the data were processed

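Poly(A) RNA of 12 libraries was sequenced in pairs from strand-marked libraries, per the labels' protocols. The submitters' processing notes name cutadapt 1.9, HISAT2 2.2.1 and StringTie 2.1.6 as well as DESeq2 and edgeR, without their roles. The deposited table holds estimated counts, which are whole numbers left unscaled by the authors, and FPKM, which the authors scaled to transcript length and library size. The notes name mm9, but of 29864 genes matched to GENCODE M21, 87.9% (8 of the 9 members) have identical GRCm38 positions. Control columns named CON were matched to PBS by inference.

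The 12036 genes that reached an FPKM of 1 in 3 or more libraries were fitted with TMM scaling and edgeR 4.0.16 (R 4.3.3; glmQLFit, glmQLFTest, 2-sided), with 1 mean per group over 12 libraries. Calls were made where the p adjusted after Benjamini and Hochberg was below 0.05. An SE is the absolute log2 fold change over the square root of F, an approximation. For log2 CPM the prior count was 2. The common biological coefficient of variation was 18.1%. On simulated data for OAP2 against PBS (12036 genes), 22 of 67 genes changed 1.5-fold, 48 of 67 changed 2-fold, 64 of 66 changed 4-fold and 6 of 11836 unchanged genes were called.

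Members and lists were chosen with earlier results of these data known. The genes named are the members, the called genes of the other Polycomb list (at most 4 a comparison, or the 2 with the smallest p), expressed genes within 500 kb of Cbx2, the 5 most and 3 least like Cbx2, HP1 genes, and called Hox or CDK inhibitor genes. An item of these lists is not reported here. Alternatives were DESeq2 1.42.0, limma 3.58.1 on log2(FPKM + 1) or log2(FPKM + 0.1), relative log expression factors, no filter, only the 6 libraries compared, a replicate block and each library left out.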

Additional observations from a re-analysis of the deposited data

How the results depend on the processing

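Cbx2 was chosen for lying above PBS in all 3 treatments, so keeping that sign under every alternative was no test. Only the sizes of its differences from PBS are described. With limma on log2(FPKM + 1), a scale that shrinks low genes, the log2 differences were 1.13 in OAP2, 1.30 in Oxa and 0.69 in APAP, and leaving out single libraries gave 1.31 to 1.63, 1.49 to 1.79 and 0.80 to 1.11. For OAP2 against APAP, DESeq2 gave Cbx2 0.51 and called it (adjusted p = 0.0266).

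The number of other Polycomb genes called in OAP2 against PBS was 4, and it was 1 with no filter, 0 in the 6 libraries compared, 2 with the replicate block, and 1 to 7 on leaving out single libraries. In Oxa against PBS the 2 calls became 1 with limma at either pseudocount, with no filter, in the 6 libraries compared and with the replicate block, and 1 to 7 on leaving out single libraries. In OAP2 against Oxa the 4 calls became 2 with no filter and 2 to 6 on leaving out single libraries. In OAP2 against APAP the 0 calls became 2 with DESeq2 and 2 in the 6 libraries compared. In Oxa against APAP the 3 calls became 10 in the 6 libraries compared. The cause was not tested.

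Differences near 0 that no fit called changed sign. For OAP2 against Oxa, Cbx5 (0.0066) was -0.0117 and -0.0134 with limma at pseudocounts 1 and 0.1 and -0.0084 with no filter, and Ezh2 (-0.0111) was 0.0134 in the 6 libraries. For OAP2 against APAP, Rnf2 (-0.0085) was 0.0144 and 0.015 with limma and 1e-04 both with no filter and in the 6 libraries, and Cbx3 (-0.0242) was 0.0014 with limma. For Oxa against APAP, Cbx6 (-0.0342) was 0.0011 and 0.0014 with limma. On leaving out single libraries the ranges were -0.0991 to 0.1374 for Cbx5, -0.0801 to 0.053 for Ezh2 and -0.0594 to 0.0123 for Cbx1 in OAP2 against Oxa. They were -0.0742 to 0.0519 for Rnf2, -0.0799 to 0.0346 for Cbx3 and -0.2141 to 0.1454 for Cbx7 in OAP2 against APAP. They were -0.1155 to 0.0194 for Cbx6, -0.0085 to 0.0265 for Bmi1 and -0.0086 to 0.1074 for Pcgf2 in Oxa against APAP, and -0.04 to 0.2492 for Cbx1 and -0.0682 to 0.1791 for Cbx5 in APAP against PBS.

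The replicate numbers gave no pairing: deviations from group means correlated between -0.152 and 0.155 in 18 pairs with a shared number, and the replicate block lowered the OAP2 and Oxa counts as given above. Counts over all genes moved too: over the alternatives they lay between 38 and 1976 in OAP2 against PBS (main value 632), 477 and 3066 in Oxa against PBS (1217), 0 and 97 in APAP against PBS (2), 688 and 2161 in OAP2 against Oxa (1557), 0 and 506 in OAP2 against APAP (57) and 840 and 4409 in Oxa against APAP (1852). In the simulation, made for OAP2 against PBS only, most changes near 1.5-fold were missed. The share missed in the other comparisons was not simulated. An uncalled difference of that size is not shown to be absent.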
